A study of Mus musculus with 1528 samples.

Results

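The cytosolic ribosomal protein genes encode the protein parts of the ribosome that translates nuclear mRNAs. They were taken by name from a table of fragment counts of single macrophages, as the genes called *Rps* or *Rpl* with a number and up to 1 closing letter, together with *Rplp0*, *Rplp1*, *Rplp2* and *Rpsa*. Names ending in -ps, which mark pseudogenes, were left out, and a gene had to be found in at least 5% of the cells. The names took 83 of 55421 genes, and 81 of them were kept. The 2 that fell below the limit were *Rpl39l*, found in 2.95% of the cells, and *Rpl3l*, found in 0.853%. The 81 genes comprised 32 of the small 40S subunit, 46 of the large 60S subunit and 3 of the stalk of the large subunit. In the GENCODE annotation 78 of them were protein coding, and *Rpl32l*, *Rpl6l* and *Rps4l* were listed as processed pseudogenes although their names lack the -ps ending.

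Each cytosolic ribosome holds a small subunit, which reads the mRNA, and a large subunit, which joins the amino acids. The stalk, built from Rplp0 with pairs of Rplp1 and Rplp2, recruits the GTPases that drive elongation. The mRNAs of ribosomal proteins are abundant and typically start with a cytosine followed by a run of pyrimidines, the TOP motif, through which mTORC1 and Larp1 control their translation. Growth signals and Myc raise the production of ribosomes, and dividing cells make more of them than resting cells.

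The cells were primary macrophages (BMDMs), grown with M-CSF from the bone marrow of 2 wild-type mice, labelled C57BL/6 and given as C57BL/6J in the study's methods. For 24 h they received IL4+IL13 alone or IL4+IL13+TNF, with 10 ng/ml of every cytokine. IL4 and IL13 drive the M2 state, and the study asked how TNF changes it. Single live cells were sorted into 384-well plates and made into Smart-seq2 libraries, which cover whole transcripts and carry no molecular identifiers. Plates 2 and 3 held cells of mouse 1 and plates 4 and 5 those of mouse 2, with IL4+IL13 in rows A to H and IL4+IL13+TNF in rows I to P of every plate, so treatment and plate region cannot be told apart.

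Of 1524 wells with a mouse and a treatment, 1386 were kept after quality filters. In mouse 1 these were 357 cells without TNF and 347 with it, and in mouse 2 they were 333 and 349. The wells held 200235 to 6122892 fragments in genes, with a median of 472320, and the 4 sums by mouse and treatment held 162260282 to 179757666 fragments. All 10 macrophage markers, among them *Csf1r*, *Cd68* and *Adgre1*, were found in all 4 sums. Their summed level was 15892 and 17890 CPM, the fragments of a gene scaled to an equal total per sum, with IL4+IL13 and 27599 and 26978 CPM with TNF added, a rise carried by *Lyz2*. The summed lymphocyte, fibroblast and erythroid or mast cell lists lay at 10.7 CPM or less in every sum, with *Ncr1* at 0. The 8 dendritic cell markers summed to 22.8 and 45.1 CPM with IL4+IL13 and to 44.0 and 230 CPM with TNF, of which *Ccr7*, a gene that activated macrophages can also express, made 20.5 and 190 CPM with TNF. The 10 neutrophil markers summed to between 14.3 and 85.5 CPM, almost all from *Csf3r*. The part of these lists in the ribosomal protein values was not tested.

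The ribosomal protein genes took between 1.321% and 1.398% of all fragments in genes, and the difference between the treatments had opposite directions in the 2 mice. In mouse 1 it was 1.371% with IL4+IL13 (95% Wilson interval 1.369% to 1.373%) and 1.321% with TNF (1.319% to 1.323%). In mouse 2 it was 1.341% with IL4+IL13 (1.339% to 1.343%) and 1.398% with TNF (1.397% to 1.400%). These intervals cover the counting error of fragments only and leave out the spread between cells and mice. They are too narrow even for counts of molecules, since PCR copies of 1 molecule are counted each time. The difference, TNF minus IL4+IL13, was thus −0.0501 percentage points in mouse 1 and 0.0571 points in mouse 2. The mean difference of 0.0035 points was far below its SD between mice of 0.0758 points (n = 2). With the 2 sums of each treatment taken as unpaired, the smallest two-sided exact permutation p is 0.333, and pairing within a mouse makes it larger. No single value compared over mice can therefore reach 0.05 in such a test.

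The direction held in both plates of each mouse. On plate 2 the share was 1.367% with IL4+IL13 and 1.282% with TNF, and on plate 3 it was 1.375% and 1.353%. On plate 4 it was 1.309% and 1.386%, and on plate 5 it was 1.377% and 1.410%. Both plates of mouse 1 were therefore lower with TNF and both plates of mouse 2 higher, with differences from −0.0856 to 0.0770 points. The IL4+IL13 shares of 3 plates lay between 1.367% and 1.377%, and that of plate 4 stood below them.

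**Figure D1:**
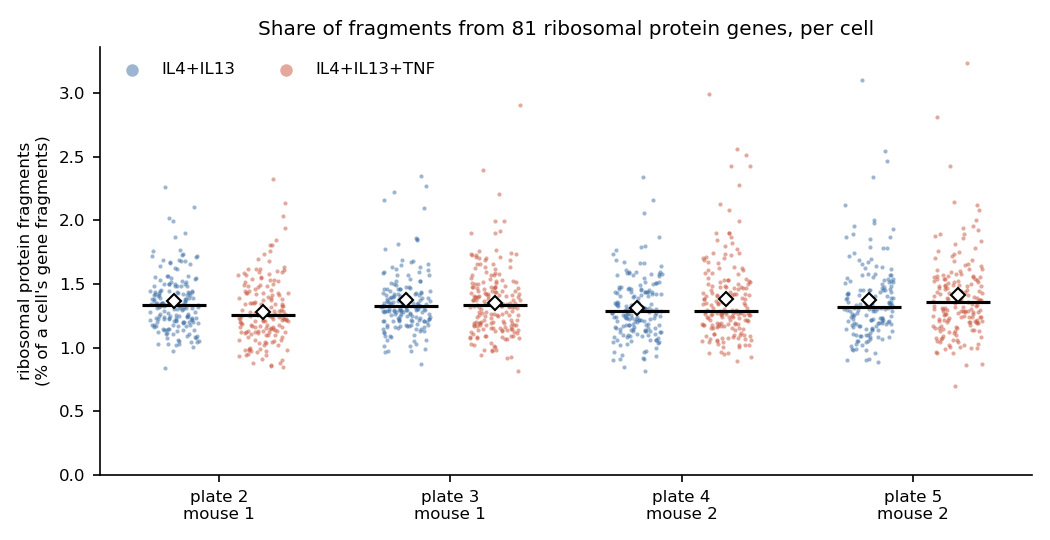
Share of a cell's fragments that fell on the 81 ribosomal protein genes (percent, y axis) for each of 1386 cells, by plate and treatment (x axis), with 1 point per cell and the median of each group as a bar. The medians of all 8 groups lie close together while single cells spread from 0.703% to 3.235%.

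Single cells differed far more than the treatments. The share in a cell ranged from 0.703% to 3.235%. The median cell stood at 1.331% and 1.302% with IL4+IL13 and at 1.295% and 1.321% with TNF, in mouse 1 and mouse 2. The SD over cells was 0.225 and 0.280 percentage points with IL4+IL13 and 0.266 and 0.326 points with TNF, and it was higher with TNF on each of the 4 plates (0.220 against 0.254, 0.231 against 0.272, 0.235 against 0.329 and 0.318 against 0.323 points on plates 2 to 5). All cells were also thinned to 50000 fragments, a depth that 0 cells missed. The SD was then 0.236 and 0.278 points with IL4+IL13 and 0.269 and 0.330 points with TNF. Counting alone gives an SD of about 0.052 points at that depth. The coefficient of variation after thinning was 17.5% and 20.8% with IL4+IL13 and 20.3% and 23.8% with TNF. Cells above 2% numbered 8 and 9 with IL4+IL13 and 6 and 15 with TNF, and cells below 1% numbered 7 and 21 with IL4+IL13 and 27 and 15 with TNF. The share was almost unrelated to the total of a cell, with Spearman's rho across the cells of a mouse and treatment between −0.015 and 0.086.

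In the sums by mouse the parts of the ribosome moved with the whole. The small subunit genes took 0.652% and 0.649% of fragments with IL4+IL13 and 0.617% and 0.667% with TNF, in mouse 1 and mouse 2. The large subunit genes, with the stalk, took 0.719% and 0.692% with IL4+IL13 and 0.704% and 0.732% with TNF. Of this, the 3 stalk genes took 0.142% and 0.132% with IL4+IL13 and 0.139% and 0.145% with TNF. Each part was lower with TNF in mouse 1 and higher in mouse 2. By plate, only the large subunit genes with the stalk kept these directions on every plate. The small subunit share was lower with TNF on plate 5 (0.670% against 0.666%), and the stalk share higher on plate 3 (0.1379% against 0.1390%). The mitochondrial ribosomal proteins, which build the separate ribosome of mitochondria, took 0.531% and 0.415% with IL4+IL13 and 0.522% and 0.475% with TNF.

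Against the spike-in RNAs added to each well, the ribosomal protein fragments were higher with TNF in both mice. There were 30.1 and 18.4 of them per spike-in fragment with IL4+IL13 and 32.9 and 24.2 with TNF, a log2 difference of 0.13 in mouse 1 and 0.40 in mouse 2. On single plates the direction differed. On plate 2 the ratio was 30.5 with IL4+IL13 and 27.5 with TNF, while on plates 3, 4 and 5 it was higher with TNF (29.7 against 38.7, 18.1 against 22.02 and 18.8 against 26.9). Gene fragments as a whole were also higher per spike-in fragment with TNF in both mice. In mouse 1 there were 178073130 beside 81162 spike-in fragments with IL4+IL13, and 162464577 beside 65259 with TNF. In mouse 2 there were 162260282 beside 118155 with IL4+IL13, and 179757666 beside 103666 with TNF.

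Gene by gene, no ribosomal protein gene passed the test. The sums by mouse and treatment were compared with edgeR's quasi-likelihood test, scaled by TMM and adjusted by Benjamini-Hochberg over 17034 genes. Called are genes with an adjusted p below 0.05. Of all genes 0.00587% were called, which was 1 gene, *Clec4e*, a receptor for mycobacterial glycolipid (19.6 and 22.6 CPM with IL4+IL13, 636 and 705 CPM with TNF, adjusted p = 0.0204). The M2 lectin *Clec10a* stood at 266 and 349 CPM with IL4+IL13 and at 80.9 and 120 CPM with TNF, with an adjusted p of 0.232 by edgeR and of 0.00771 with the mouse as a block. Of the 81 ribosomal protein genes 0 were called, and the smallest adjusted p was 0.621. An unadjusted p below 0.05 was found for 0 of the 81, beside 1380 of all 17034 genes. With the mouse as a block in the same fit, which pairs the treatments within a mouse, 651 genes or 3.82% were called and again 0 of the 81, with 5 at an unadjusted p below 0.05 (*Rpl19*, *Rps12*, *Rps27a*, *Rps23* and *Rpl38*) and a smallest adjusted p of 0.116. DESeq2 called 598 genes or 3.51%, and 0 of the 81, with 1 at an unadjusted p below 0.05 and a smallest adjusted p of 0.443.

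The fitted log2 fold changes of the 81 genes were small. Their median was 0.13 (range −0.15 to 0.66), beside 0.004 over all genes tested, and 75 of the 81 lay within 0.3 of 0. Their median absolute change was 0.136, beside 0.254 over all genes, and their median SE was 0.175. With TMM 69 were above 0 and 12 below (85.2% above, beside 50.4% of all genes), whereas scaling by library size left 52 above 0 and scaling by spike-ins 80. These scalings shifted the median of all genes to −0.089 and 0.15. Relative to it, the median of the ribosomal protein genes stood 0.13 higher under TMM, library size and DESeq2, 0.119 higher with the mouse as a block and 0.128 higher with spike-ins. By subunit the median was 0.14 for the 32 small subunit genes (26 above 0), 0.12 for the 46 large subunit genes (40 above 0) and 0.19 for the 3 stalk genes (3 above 0), all with TMM.

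In CPM, without further scaling, the mice differed. The median log2 change over the 81 genes was −0.005 in mouse 1 and 0.06 in mouse 2, beside −0.068 and −0.055 over all genes. In both mice 33 genes were higher with TNF and 17 lower. The other 31 moved in opposite directions, of which 26 were higher only in mouse 2 and 5 only in mouse 1. Both TNF sums lay above both IL4+IL13 sums in 20 of the 81 genes, beside 13.2% of all genes, and below them in 10, beside 24.1% of all genes. The 20 included *Rpl19*, *Rpl23a*, *Rpl24*, *Rpl31*, *Rpl34*, *Rpl39*, *Rpl41*, *Rplp2*, *Rps6*, *Rps10*, *Rps12*, *Rps13*, *Rps23* and *Rps27a*. The 10 included *Rpl3*, *Rpl10a*, *Rpl28*, *Rpl37a*, *Rps2*, *Rps14*, *Rps15* and *Rps16*.

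**Figure D2:**
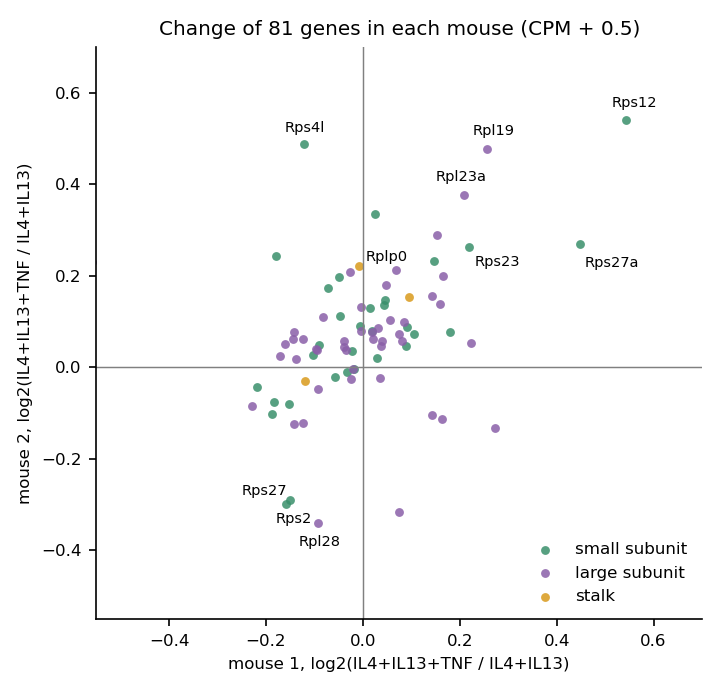
Log2 ratio of CPM with TNF over CPM with IL4+IL13 (0.5 CPM added to each) in mouse 1 (x axis) and mouse 2 (y axis) for the 81 genes, with small subunit, large subunit and stalk genes marked separately. The center of the *Rpl9* point, at −0.56 in mouse 1 and 0.23 in mouse 2, falls just outside the left edge. Most points lie within 0.3 of 0 on both axes, 33 are positive in both mice, 17 negative in both and 31 differ in sign.

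The small subunit gene with the largest fitted increase was *Rps12* (chr10:23785183-23787275 in mm10). It stood at 8.26 and 11.2 CPM with IL4+IL13 and at 12.3 and 16.4 CPM with TNF, in mouse 1 and mouse 2. Both TNF sums were above both others, but the log2 fold change of 0.66 ± 0.29 (SE, n = 2 mice) had an adjusted p of 0.667 by edgeR. *Rps12* is among the genes with near-identical pseudogenes, and with the counts of these copies added its log2 fold change was 0.07. *Rps27a*, which makes a fusion of ubiquitin and a small subunit protein, went from 24.8 and 26.6 CPM to 34.1 and 32.2 CPM (0.46 ± 0.19, adjusted p = 0.645), with a log2 fold change of 0.29 once its copies were added. *Rps23*, whose protein lies at the decoding center, went from 65.0 and 60.7 CPM to 75.7 and 72.9 CPM (0.33 ± 0.17, adjusted p = 0.735). None of these differences passed the threshold. At the other end, *Rps27* stood at 20.6 and 26.9 CPM with IL4+IL13 and at 18.4 and 21.8 CPM with TNF (−0.15 ± 0.24, adjusted p = 0.946), with overlapping groups. *Rps2* stood at 189 and 190 CPM with IL4+IL13 and at 170 and 155 CPM with TNF (−0.13 ± 0.16, adjusted p = 0.930). *Rps2* was lower with TNF in both mice without overlap, and the fitted values of *Rps27* and *Rps2* turned positive when spike-ins set the scale.

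*Rps6*, the substrate of S6 kinase, stood at 33.7 and 28.9 CPM with IL4+IL13 and at 34.3 and 36.6 CPM with TNF (0.27 ± 0.20, adjusted p = 0.844). *Rpsa*, also known as the laminin receptor, stood at 59.6 and 75.9 CPM with IL4+IL13 and at 67.6 and 80.1 CPM with TNF (log2 fold change 0.22, adjusted p = 0.893, and 0.06 to 0.39 on the log2 scale with 1 sum left out). *Rps29* stood at 22.4 and 20.5 CPM with IL4+IL13 and at 23.8 and 21.8 CPM with TNF (log2 fold change 0.18, adjusted p = 0.920, and 0.06 on the log2 scale once its copies were added). The mice differed within a treatment about as much as the treatments did. *Rps27l*, a p53-responsive paralog of *Rps27*, differed between the mice, with 438 and 287 CPM under IL4+IL13 and 387 and 340 CPM under TNF. It was lower with TNF in mouse 1 and higher in mouse 2. X-linked *Rps4x* stood at 263 and 290 CPM with IL4+IL13 and at 236 and 274 CPM with TNF.

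Among the large subunit genes *Rpl19* (chr11:98026710-98030492) had the smallest adjusted p in each of the fits with and without the mouse as a block. It stood at 55.7 and 49.5 CPM with IL4+IL13 and at 66.7 and 69.1 CPM with TNF, with no overlap (0.46 ± 0.18, adjusted p = 0.621 by edgeR and 0.116 with the block). *Rpl23a*, which sits at the exit of the peptide tunnel, went from 19.1 and 15.97 CPM to 22.2 and 20.9 CPM (0.39 ± 0.22, adjusted p = 0.776), with a log2 fold change of 0.20 once its copies were added. *Rpl28* stood at 10.8 and 13.2 CPM with IL4+IL13 and at 10.1 and 10.3 CPM with TNF (−0.14 ± 0.24, adjusted p = 0.952), positive with spike-in scaling. *Rpl13a*, often used as a reference gene in qRT-PCR, stood at 109 and 116 CPM with IL4+IL13 and at 98.8 and 123 CPM with TNF. Its fitted log2 change was 0.07 under TMM and −0.02 by library size. *Rpl10l*, a copy of *Rpl10* known from the testis, lay at 0.612 and 0.203 CPM with IL4+IL13 and 0.745 and 0.150 CPM with TNF, and was found in 15.2% of cells. The rows annotated as processed pseudogenes were not low. *Rpl32l* stood at 102 and 93.5 CPM with IL4+IL13 and at 93.9 and 97.7 CPM with TNF, and *Rpl6l* at 56.3 and 50.2 CPM with IL4+IL13 and at 52.8 and 51.6 CPM with TNF. The small subunit row of this kind, *Rps4l*, stood at 13.4 and 8.43 CPM with IL4+IL13 and at 12.3 and 12.03 CPM with TNF. In all 3 the difference between the treatments had opposite directions in the 2 mice.

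In the stalk, *Rplp0* (chr5:115559467-115563727) stood at 839 and 705 CPM with IL4+IL13 and at 834 and 823 CPM with TNF (0.19 ± 0.16, adjusted p = 0.868, and 0.06 to 0.33 on the log2 scale with 1 sum left out). The highest and the lowest value were both in cells without TNF. *Rplp1* stood at 413 and 452 CPM with IL4+IL13 and at 380 and 443 CPM with TNF, and its fitted log2 change of 0.02 became −0.07 by library size. *Rplp2* stood at 164 and 167 CPM with IL4+IL13 and at 175 and 186 CPM with TNF (log2 fold change 0.22, adjusted p = 0.828), with both TNF sums above both others.

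**Figure D3:**
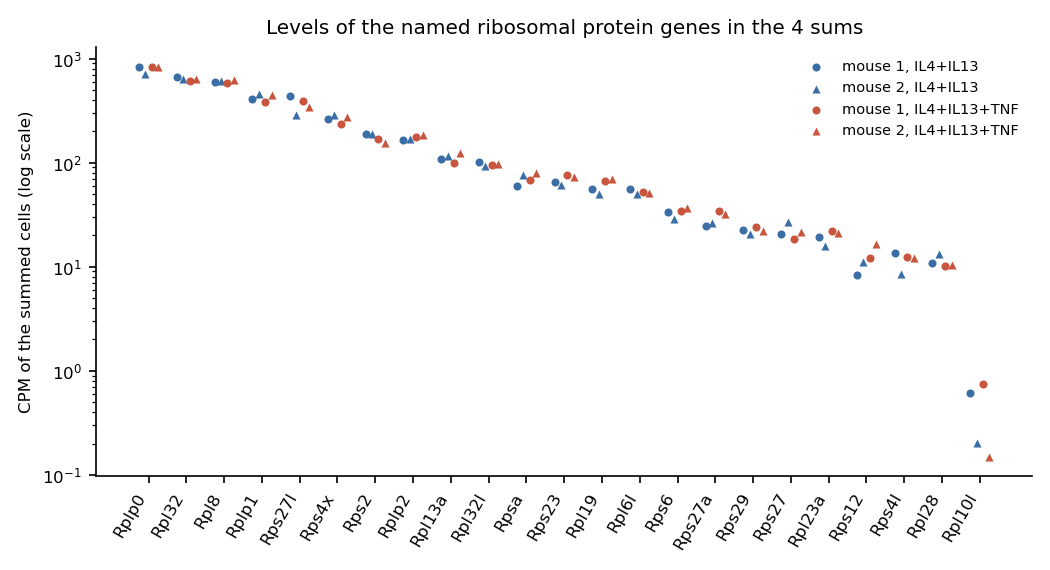
CPM (log scale) of the named ribosomal protein genes in the 4 sums of cells, by gene, with mouse 1 and mouse 2 and the 2 treatments marked separately. Genes differ by orders of magnitude, from under 1 CPM for *Rpl10l* to 705 CPM and more for *Rplp0*. The 4 values of *Rpl8* or *Rpl32* nearly coincide, while those of *Rps12*, *Rps4l*, *Rps27l* and *Rpl10l* spread more widely.

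Most of these proteins are present once in each ribosome, but the levels of their genes were far from equal. The level of the highest gene, *Rpl4* at 853 CPM as the mean of the 4 sums, was 1990 times that of the lowest, *Rpl10l*. The 10 highest genes held 48.7% of all ribosomal protein fragments, 11 genes reached 50%, and the lowest 40 held 11.1%. Per kb of gene model, the highest included *Rplp1* at 845 CPM per kb, *Rpl32* at 660, *Rplp0* at 482, *Rps27l* at 445 and *Rpl8* at 442. The order of levels was nearly the same in the 4 sums, with rank correlations across the 81 genes of 0.993 to 0.997. In the cells 64 of the 81 genes were found in at least 99% of cells, and the median cell held 78 of the 81. *Rps4l* and *Rpl10l*, at 20.996% and 15.2%, were the 2 found in under 50% of cells.

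These levels are levels of uniquely mapped fragments, and ribosomal protein genes have many processed pseudogenes, intronless copies of their mRNAs elsewhere in the genome. The coding sequences of 78 of the genes were compared with 13369 pseudogenes of the table. There were 955 pseudogenes that matched over at least 80% of a coding sequence at 90% identity or more, and they matched 74 of the 81 genes. The copies summed to 20064 CPM and the genes themselves to 13579 CPM, so 59.6% of the joint fragments were on copies. In 58 of the 74 genes the copies held more fragments than the gene. There were 244 copies above 10 CPM and 49 above 100 CPM. The gene with the most copies was *Rpl21*, with 76. The 7 without a match included *Rpl8*, *Rplp2* and *Rps3*, together with *Rpl32l*, *Rpl6l* and *Rps4l*, which have no annotated coding sequence and were not compared. Being among the 81 genes, *Rpl32l*, *Rpl6l* and *Rps4l* could also not count as copies of another gene.

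To show how alike gene and copy are, 2 pairs are given with 90 bases of each coding sequence from the GENCODE models in mm10. *Rpl23* and its copy *Gm9794* differed at 1 of 423 coding bases, which is the capital letter in each line. The stretch spans exons 3 and 4 of *Rpl23* (chr11:97778307-97781351, minus strand), while the copy is 1 unbroken piece (chr6:66875446-66875535, minus strand).
Rpl23: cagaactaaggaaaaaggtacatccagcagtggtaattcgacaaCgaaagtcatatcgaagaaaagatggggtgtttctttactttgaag
Gm9794: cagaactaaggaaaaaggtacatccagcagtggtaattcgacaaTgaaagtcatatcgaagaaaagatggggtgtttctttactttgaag

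*Rpl23* stood at 174 and 195 CPM with IL4+IL13 and 183 and 205 CPM with TNF, and *Gm9794* at 621 and 690 CPM with IL4+IL13 and 645 and 725 CPM with TNF. The 4 sums had the same order for gene and copy.

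*Rps6* and its copy *Rps6-ps4* were identical over all 750 coding bases. The line shows the first 90, which are the same in the gene (chr4:86856776-86857326, minus strand, exons 1 and 2) and in the copy (chr2:75191733-75191822, minus strand). The capitals are the 2 bases on each side of the junction of the exons, where the gene has an intron and the copy has none.
Rps6 and Rps6-ps4: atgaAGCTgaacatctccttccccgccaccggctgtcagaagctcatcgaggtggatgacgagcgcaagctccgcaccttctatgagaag

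The gene stood at 28.9 to 36.6 CPM and the copy at 405 and 428 CPM with IL4+IL13 and 423 and 473 CPM with TNF. Over its 14 copies, with 665 CPM, *Rps6* itself held 4.78% of the joint fragments.

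With 4.72% of the joint fragments *Rps29* had the lowest own share of the 74 genes. The others with low own shares included *Rpl31* at 6.20%, *Rpl24* at 6.67% and *Rps10* at 7.10%, and 11 genes in all were under 10%. The highest shares included *Rps27l* at 86.5%, *Rplp1* at 85.2% and *Rpl32* at 81.3%, and the median over the 74 genes was 23.1%. The *Rpl32* share leaves out the row *Rpl32l*, with a mean of 96.8 CPM, which could not count as a copy. Reads of 50 bases were sequenced in pairs and only uniquely mapped fragments were counted. In 63 of the 74 genes more than 50% of all windows of 50 coding bases also occurred letter for letter in a copy, and the median own share of these genes was 20.8%. In the other 11 genes it was 73.0%. Across the 74 genes the share of such windows and the own share had a Spearman correlation of −0.699, as a description. Transcripts of a gene and fragments of it placed on a copy cannot be told apart in these counts.

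**Figure D4:**
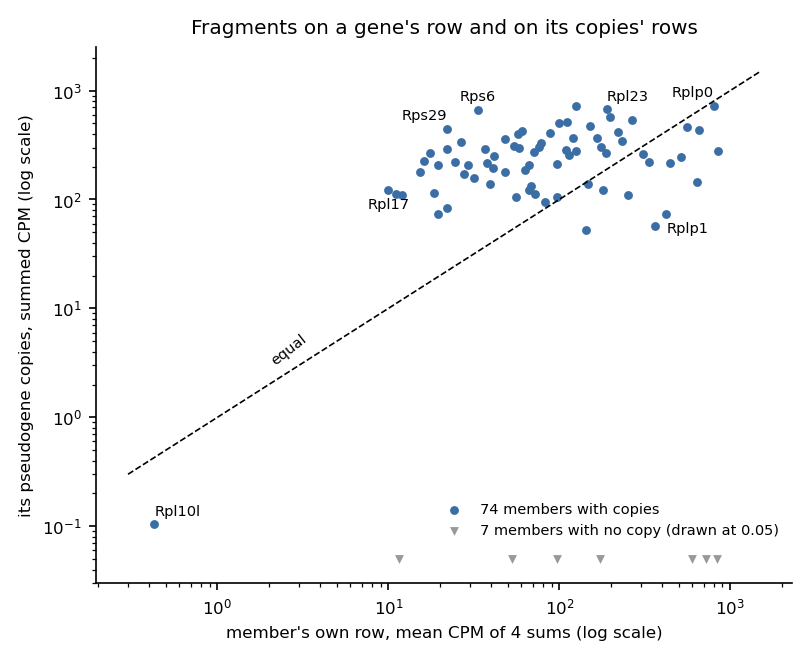
Mean CPM of the 4 sums on a gene's own row (x axis, log scale) and summed over its pseudogene copies (y axis, log scale), with 1 point per gene, a dashed line where both are equal, and the 7 genes without a copy drawn at the foot. Points above the line are the 58 genes whose copies held more fragments than the gene itself.

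The copies differed between treatments in the same directions as the genes. They took 1.969% and 2.030% of fragments with IL4+IL13 and 1.921% and 2.106% with TNF, a difference of −0.0488 percentage points in mouse 1 and of 0.0765 points in mouse 2, with the same direction on both plates of each mouse. Genes and copies together took 3.340% and 3.371% with IL4+IL13 and 3.242% and 3.504% with TNF. Across cells the shares of genes and copies had a Spearman's rho of 0.909 and 0.912 with IL4+IL13 and 0.948 and 0.939 with TNF (333 to 357 cells each, with a shared denominator and shared libraries). When the counts of the copies were added to their gene before the fit, 0 of the 81 genes were called and the median log2 fold change was 0.12.

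At their 5′ ends the genes had some sequence features more often than promoters in general, and the choice by name did not use them. RefSeq promoters (GRCm38.p6, 250 bases before to 50 after the start) were available for 59 of the 81 genes and for 32851 starts in all. The 59 were counted with a single promoter per gene, whereas all 32851 starts were kept. A cytosine at the start followed by 4 pyrimidines was present in 13 of the 59 (22.03%), beside 2.51% of all promoters, and in 28 (47.5%) when the run could begin anywhere from 5 bases before to 10 after the start, beside 18.4% of all. CGGAAG, the core bound by ETS factors such as GABPA, was present on either strand in 40 of the 59 (67.8%), beside 16.9% of all. TATAAA between 40 and 16 bases before the start was present in 0 of the 59, beside 1.99% of all promoters. The starts of 6 genes described above are shown in windows of 10 bases before and 20 from the annotated start. The first run of a cytosine and at least 4 pyrimidines is in capitals, and *Rpl23* and *Rps3* have no such run in this window. A later run at the end of the *Rps6* line is left in small letters.
Rps6: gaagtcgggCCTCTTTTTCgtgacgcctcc
Rplp2: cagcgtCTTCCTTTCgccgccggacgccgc
Rps12: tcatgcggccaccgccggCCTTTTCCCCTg
Rplp0: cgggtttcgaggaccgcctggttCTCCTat
Rpl23: gtccggtcacgtggctgagtgggcggggcc
Rps3: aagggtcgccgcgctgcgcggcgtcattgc

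These windows are chr4:86857348-86857377 (minus strand), chr7:141447641-141447670 (plus), chr10:23787190-23787219 (minus), chr5:115559457-115559486 (plus), chr11:97782420-97782449 (minus) and chr7:99483690-99483719 (minus). The run in capitals begins within 5 bases of the annotated start in *Rps6* and *Rplp2* and further into the transcript in *Rps12* and *Rplp0*. A match is a description of the letters, and a missing one says only that they are not in this window.

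Across single cells the shares of the small and the large subunit genes were correlated, and the correlation was higher in cells with TNF. Spearman's rho between the shares of the 2 subunits was 0.778 and 0.759 with IL4+IL13 and 0.873 and 0.839 with TNF, over 333 to 357 cells of each mouse, with the stalk counted in the large subunit. It was higher with TNF on each of the 4 plates, at 0.796 against 0.860, 0.755 against 0.877, 0.717 against 0.834 and 0.803 against 0.853 on plates 2 to 5. Both shares come from the same library and have the same denominator. Thinned to 50000 fragments per cell, rho was 0.684 and 0.717 with IL4+IL13 and 0.799 and 0.775 with TNF, again higher with TNF on each plate. For the small and large subunit of the mitochondrial ribosome it was 0.558 and 0.368 with IL4+IL13 and 0.448 and 0.362 with TNF, not higher in either mouse. By plate it was lower with TNF on plates 2, 3 and 5 and higher on plate 4, at 0.379 against 0.453. The SD of the ribosomal protein share was also higher with TNF, and its part in the higher rho was not tested.

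**Figure D5:**
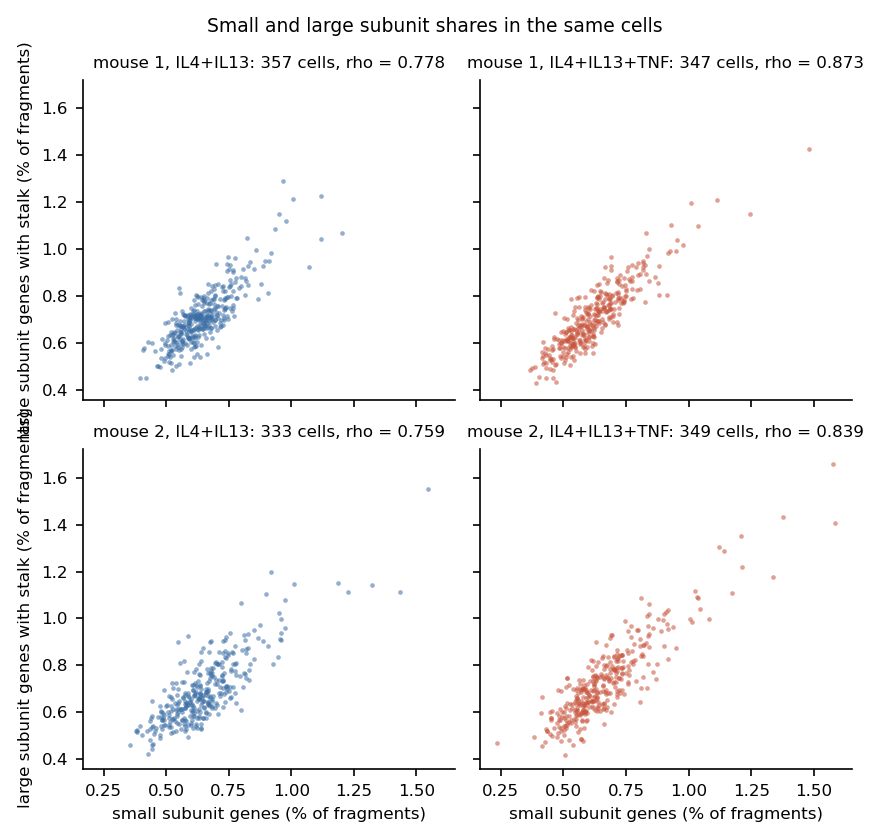
Percent of a cell's fragments on the small subunit genes (x axis) and on the large subunit genes with the stalk (y axis), with 1 point per cell, in 4 panels by mouse and treatment. The points of the TNF panels lie closer to a line, with a Spearman's rho of 0.873 and 0.839, beside 0.778 and 0.759 with IL4+IL13.

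Single pairs of genes were only weakly related. Over the 3081 pairs of the 79 genes found in at least 25% of cells, the median Spearman's rho was 0.102 and 0.103 with IL4+IL13 and 0.163 and 0.152 with TNF, and 0.0516 and 0.0584 against 0.0774 and 0.0825 after thinning. Of the 81 genes 61 had a higher rho with the summed share of the others under TNF in both mice and 4 a lower one. *Rpl32*, among the highest genes per length, followed the others most closely, with 0.613 and 0.557 under IL4+IL13 and 0.768 and 0.697 under TNF. *Rpl32l*, named after it and annotated as a processed pseudogene, came next in mouse 1 under IL4+IL13, with 0.573 there and 0.552 in mouse 2, and 0.699 and 0.673 under TNF. At the low end, *Rps12* had −0.008 and 0.110 under IL4+IL13 and 0.158 and 0.126 under TNF. The values of low genes are limited by few fragments per cell.

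The other genes of the translation machinery are given from lists, and in each list 0 genes were called by edgeR without the block. The counts above and below 0 are those with TMM, and library size and spike-in scaling are given where they turn a median. The edgeR counts at an unadjusted p below 0.05, here and in the lists below, stand beside 1380 of all 17034 genes. Of the 6 ribosomal protein genes outside the name rule all 6 were above 0 (5 by library size and 6 by spike-ins). Their median log2 fold change was 0.18, with 0 at an unadjusted p below 0.05. *Rpl36al* went from 98.1 and 93.4 CPM to 118 and 120 CPM (0.41, adjusted p = 0.628). *Fau*, whose product is processed to a small subunit protein, went from 34.2 and 35.0 CPM to 36.8 and 37.7 CPM (0.20, adjusted p = 0.886). Of the 18 elongation factors and other TOP mRNAs 10 were above 0 and 8 below (7 above by library size and 16 by spike-ins). Their median of 0.003 became −0.09 by library size and 0.18 by spike-ins. The nucleolar chaperone *Npm1* stood at 292 and 278 CPM with IL4+IL13 and 316 and 333 CPM with TNF (0.28, adjusted p = 0.741), and the histone chaperone *Nap1l1* at 125 and 117 CPM with IL4+IL13 and 87.0 and 96.0 CPM with TNF (−0.31, adjusted p = 0.760). Across cells this list followed the ribosomal protein share, with a Spearman's rho of 0.494 and 0.486 with IL4+IL13 and 0.617 and 0.653 with TNF.

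Of the 39 ribosome biogenesis genes 33 were above 0 and 6 below (29 above by library size and 38 by spike-ins). Their median was 0.25, with 2 at an unadjusted p below 0.05. *Ltv1*, which acts in the export of the small subunit, went from 37.5 and 32.3 CPM to 62.5 and 45.8 CPM (0.73, adjusted p = 0.532). *Rrs1*, needed for the large subunit, went from 32.3 and 22.4 CPM to 46.5 and 38.4 CPM (0.73, adjusted p = 0.585). Of the 30 initiation factors 23 were above 0 and 7 below (16 above by library size and 29 by spike-ins). Their median was 0.12, with 1 at an unadjusted p below 0.05. *Eif5a* stood at 860 and 507 CPM with IL4+IL13 and at 1320 and 845 CPM with TNF, higher with TNF in each mouse (0.76, adjusted p = 0.688 by edgeR and 0.0171 with the mouse as a block). With 1 sum left out its log2 fold change ranged from 0.38, without mouse 1 under TNF, to 1.196, without mouse 1 under IL4+IL13. Of the 21 regulators of ribosomal protein mRNAs 8 were above 0 and 13 below (7 above by library size and 14 by spike-ins). Their median of −0.06 became 0.09 by spike-ins. *Myc* stood at 27.4 and 6.11 CPM with IL4+IL13 and at 42.2 and 5.90 CPM with TNF (0.62, adjusted p = 0.953), so it was higher with TNF in mouse 1 only and lower in mouse 2 under both treatments.

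Of the 77 mitochondrial ribosomal protein genes tested 65 were above 0 and 12 below (57 above by library size and 74 by spike-ins). Their median was 0.18, with 2 at an unadjusted p below 0.05. *Mrpl52* stood out, with 18.1 and 16.3 CPM under IL4+IL13 and 53.5 and 51.7 CPM under TNF (1.71 ± 0.20). Its adjusted p was 0.155 by edgeR, 0.00865 with the mouse as a block and 1.7e-09 by DESeq2. *Mrpl52* and *Eif5a* were the 2 genes of these lists that the block added, and *Mrpl52* was the 1 that DESeq2 called.

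Of the 18 cell cycle genes all 18 were below 0 with TMM and 17 with spike-ins, with medians of −0.70 and −0.57. By edgeR 0 were called and 8 had an unadjusted p below 0.05, with the block 9 were called and by DESeq2 4. Their summed level was 2726 and 1718 CPM with IL4+IL13 and 1664 and 995 CPM with TNF. Across cells the cycling share had a Spearman's rho with the ribosomal protein share of 0.061 and 0.062 with IL4+IL13 and 0.227 and 0.173 with TNF. Its part in the spread and the closer coupling of the ribosomal protein genes with TNF was not tested.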

How the data were processed

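The authors sequenced Smart-seq2 libraries of single BMDMs as pairs of reads of 50 bases, aligned them with gsnap (mm10, Ensembl 98 splice sites), and deposited counts of uniquely mapped fragments per gene and well made with featureCounts 1.6.3, with no normalization, no use of strand and no molecular identifiers. The submitters' processing notes also name bcl2fastq 2.19.1 and Seurat 3. The 92 spike-in rows stayed out of totals and tests. There were 8 columns that matched no sample label and were not used, and 4 samples without a mouse were given no group.

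Wells beyond 3 median absolute deviations of their plate (low fragments, low genes, high mitochondrial or spike-in share) were left out, 138 of 1524. Cells were sorted singly and no doublets were called. Counts were summed per mouse and treatment, kept for genes found in 5% of the cells of either treatment that passed filterByExpr, and tested with edgeR 4.0.16 (TMM, quasi-likelihood, treatment as the only term, adjusted p below 0.05) in R 4.3.3. The test was checked on simulated counts with 200 genes changed. The mouse numbers pair the samples, since both treatments come from the same animal and share plates. Deviations from the treatment means correlated with r = 0.562 over 17034 genes and 0.666 over the 81, with 2 mice. The alternatives were the mouse as a block, DESeq2 1.42.0, library size, no gene filter, limma 3.58.1 on log2(mean CPM + 1), fixed well thresholds (1000 genes, 10% mitochondrial fragments), no well filter, each sum or plate left out, TMM without the ribosomal protein genes and spike-in totals. Adding the counts of copies, leaving out the 3 pseudogene-annotated genes and thinning were chosen after seeing the data. CPM ratios per mouse had 0.5 CPM added.

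Copies were found with blastn 2.17.0 among pseudogenes of GENCODE M21. Spearman correlations, Wilson intervals and plots used Python 3.11.15, scipy 1.17.1, numpy 2.4.6, pandas 2.3.3 and matplotlib 3.10.9. The genes and lists were chosen with earlier results of these data known. Genes were named by a rule: any past the threshold, the 6 highest per length, the 5 largest rises and the 5 largest falls among genes found in 25% of cells and moved the same way in both mice, *Rplp0*, *Rplp1*, *Rplp2*, *Rpsa*, *Rps6*, *Rps29*, *Rpl13a* and symbols ending in l or x, up to 3 genes of each translation list with the largest changes, and *Clec4e* and *Clec10a* as a check of the labels. All others were named after their values were seen. Some genes that the rule names are not reported here.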

Additional observations from a re-analysis of the deposited data

Results flagged for a closer look

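In 3 of 16 sets of 4 plates a plate's gap to its nearest neighbor passed Dixon's 95% limit as a part of the range. Chance alone flags about 1 in 20 sets where plates and sets are independent. Here plates share a mouse and the sets overlap, so the count cannot be set against that rate. The ribosomal protein share with IL4+IL13 was lowest on plate 4, at 1.309%, with a gap of 0.848 of the range. The stalk share with IL4+IL13+TNF was highest on plate 5, at 0.150%, with a gap of 0.915. The SD of the share over cells with IL4+IL13 was highest on plate 5, at 0.318 percentage points, with a gap of 0.846.

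Both plates of mouse 1 and both plates of mouse 2 differed between the treatments in opposite directions for 5 of 13 measures compared, and these differences between the mice were not tested. Mouse 2 minus mouse 1, they came to 0.107 percentage points for the ribosomal protein share, 0.0542 points for the large subunit genes with the stalk, 0.125 points for the pseudogene copies and 0.233 points for genes and copies together. For the percentage of cells with a share below 1% the difference was −7.83 points.

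Of the samples without a mouse in their labels 3 have a column of counts, and they entered no comparison. Their labels name IL4+IL13, while their wells are in row P, which otherwise holds IL4+IL13+TNF, so the treatment is uncertain. Their ribosomal protein shares were 1.06% (95% Wilson interval 1.02% to 1.10%) on plate 3, 0.910% (0.879% to 0.942%) on plate 4 and 1.11% (1.045% to 1.184%) on plate 5, with 279461, 354874 and 87198 fragments in genes. They were listed here because they hold ribosomal protein fragments outside the comparisons, and 80, 78 and 71 of the 81 genes were found in them. These wells held 0, 36 and 2 spike-in fragments, whereas 347 kept cells of mouse 1 with TNF held 65259. Of all genes 10802, 11121 and 8314 were found in them, beside medians of 7431 to 8161 in the kept cells by mouse and treatment. Whether they hold single cells like the others was not tested.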

How the results depend on the processing

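Under all 14 alternatives to the edgeR fit 0 ribosomal protein genes were called. With the mouse as a block 651 of all genes were called, with DESeq2 598 and with spike-in totals 12. Without 1 of the 4 sums the count was 4 to 30, with 4 without mouse 1 and 6 without mouse 2 under IL4+IL13, and 30 without mouse 1 and 8 without mouse 2 under TNF. The treatment left with 1 sum is then assumed to vary like the other. In the other translation lists the block called 2 and DESeq2 1. The median log2 fold change of the 81 genes was 0.042 by library size, 0.035 with limma on mean CPM per cell and 0.28 with spike-ins, and 0.103 to 0.154 without 1 sum. The mean difference in share lay between −0.0352 and 0.0422 percentage points without 1 sum (the lowest without mouse 2 and the highest without mouse 1 under TNF) and took both signs, within its SD between mice. The log2 ratio to spike-ins was 0.263.

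Over 602 pairs of a named gene and a setting, from 43 genes and 14 settings, 563 kept direction and side of the threshold. Another 34 reversed, in 13 genes, and 5 passed the threshold, with 0 lost. By library size the log2 fold change of *Rpl13a* was −0.025, of *Rpl32* −0.060, of *Rpl32l* −0.031, of *Rpl6l* −0.030 and of *Rplp1* −0.072. With limma these were −0.034, −0.055, −0.019, −0.014 and −0.055. With spike-ins *Rpl28* was at 0.041, *Rps2* 0.037, *Rps27* 0.024 and *Rps4x* 0.127. With copies added *Rpl13a* was at −0.014, *Rpl28* 0.047 and *Rps4x* 0.011, and with fixed well thresholds *Rplp1* was at −0.0057. The cause of these reversals was not tested. Without 1 sum *Rpl10l* ranged from −1.37 to 1.24, *Rpl13a* from −0.081 to 0.200, *Rpl32* from −0.018 to 0.080, *Rpl32l* from −0.013 to 0.134, *Rpl6l* from −0.029 to 0.155, *Rplp1* from −0.079 to 0.113, *Rps27* from −0.323 to 0.042, *Rps27l* from −0.186 to 0.440, *Rps4l* from −0.059 to 0.629, *Rps4x* from −0.118 to 0.068 and *Myc* from −1.43 to 2.09. Of the 43 genes 29 moved by over 1.5 times without 1 sum, 21 each by library size, limma or spike-ins and 9 with copies added. The paired fit changed no call of a ribosomal protein gene.

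The chief limits are 2 mice, treatments that occupy separate rows of each plate, and unique mapping in genes with near-identical copies. Counts without molecular identifiers include PCR copies, so precision is below what the depth gives.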
